A study of Mus musculus with 8 samples.

Results

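The 6 genes described here, Ftsj1, Wdr6, Tyw1, Tyw3, Lcmt2 and Tyw5, encode enzymes, and a partner protein of an enzyme, that modify the anticodon loop of the Phe tRNA. They were chosen by gene symbol, and each has 1 canonical transcript among the 10987 transcripts of the deposited expression values. Their RNA and their ribosome footprints were measured in oligodendrocyte progenitor cells (OPCs) and in oligodendrocytes, the cells that make myelin. The OPCs were derived in vitro from mouse epiblast stem cells of the strain 129S/SvEv and were grown with 20 ng/mL bFGF and 20 ng/mL PDGFA. The oligodendrocytes were differentiated from these OPCs with 40 ng/mL T3 (thyroid hormone), 100 ng/mL noggin, 100 ng/mL IGF-1, 10 ng/mL NT3 and 10 uM cyclic AMP. Each cell type had 2 cultures, and each culture gave 1 library of footprints protected from micrococcal nuclease and 1 library of total RNA, which makes 8 libraries in all. Expression is given as FPKM, fragments scaled to the length of the feature and to the depth of the library, counted over the coding sequence (CDS) for footprints and over the whole transcript for RNA-seq.

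The Phe tRNA reads the codons UUU and UUC, and its anticodon loop carries several modified bases. FTSJ1 adds a methyl group to the ribose of positions 32 and 34, and WDR6 is its partner for position 34, the base of the anticodon that pairs with the last base of the codon. At position 37, next to the anticodon, a methylated guanosine is built up into the bulky base wybutosine, which helps to hold the reading frame. TYW1 adds a ring, TYW3 and LCMT2 (also called TYW4) act later in the pathway, and TYW5 adds a hydroxyl group.

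The loop on which these proteins act is the same in every nuclear Phe tRNA gene of the RefSeq annotation of GRCm38.p6. The 7 genes hold 3 different sequences of 73 bases but only 1 anticodon arm, positions 27 to 43. They are printed here as DNA, 5′ to 3′ and in the sense of the tRNA, to show the targets of the 6 proteins. The capitals mark positions 32, 34 and 37, which are C, G and G. The first full sequence is shared by 5 genes.
Anticodon arm, all 7 genes: ttagaCtGaaGatctaa
n-TFgaa3, chr10:80248964-80249036, minus strand: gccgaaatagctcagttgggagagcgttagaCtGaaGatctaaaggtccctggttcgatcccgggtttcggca
n-TFgaa1, chr13:21882885-21882957, minus strand: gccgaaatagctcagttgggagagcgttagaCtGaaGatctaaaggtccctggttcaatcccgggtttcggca
n-TFgaa2, chr19:12008545-12008617, plus strand: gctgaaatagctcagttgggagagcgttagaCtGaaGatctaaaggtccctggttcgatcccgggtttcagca

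The libraries differed in depth. The steps between low FPKM values gave from 77.9 to 241.4 megabases aligned for the RNA-seq libraries and from 93.0 to 249.2 for the footprint libraries, and oligodendrocyte replicate 2 was the shallowest of each kind. Of the oligodendrocyte marker genes, Cnp, Mag, Mog and Myrf summed to between 27.1 and 28.0 FPKM in OPC RNA and to between 1482 and 1783 in oligodendrocyte RNA, and each of the 4 rose. The OPC list (Olig1, Sox10, Pdgfra and Nkx2-2) did not mark off the OPCs, since its sum was between 626 and 785 FPKM in OPCs and between 901 and 965 in oligodendrocytes, with 3 of 4 genes higher. The astrocyte list (Gfap, Aldh1l1 and S100b) went from between 13.0 and 21.4 FPKM to between 637 and 694, nearly all of it S100b, and 2 of its 3 genes rose. The sum for the neuron list (Tubb3, Rbfox3, Snap25 and Syt1) was between 15.5 and 21.6 FPKM in OPCs and between 44.2 and 47.6 in oligodendrocytes, with 1 of 4 genes higher, while Csf1r (microglia) was at most 0.0674 FPKM and Nanog (pluripotent cells) at most 0.501. The part of these other markers in the results was not tested, and in bulk libraries fewer cells of a type cannot be told apart from less RNA per cell.

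Wdr6 had the highest levels of the 6 and was the member that rose in oligodendrocytes, in RNA and in footprints. The RNA of Wdr6 measured 44.7 FPKM in OPC replicate 1 and 57.0 in replicate 2, and 82.4 and 82.6 in the oligodendrocyte replicates. Its footprints were at 70.5 and 90.2 FPKM in OPCs and at 172.8 and 220.9 in oligodendrocytes. The groups did not overlap in either kind of library. Between cultures with the same number the footprints were 2.45-fold higher in each pair, while the RNA was 1.84-fold and 1.45-fold higher. Fold changes compare oligodendrocytes with OPCs after adding 0.1 to each FPKM and taking log2, which understates the change of low nonzero values. Where a value is listed at 0, the change depends on the amount added. The log2 fold change was 0.71 for RNA (adjusted p = 0.0299, limma, standard error 0.18) and 1.29 for footprints (standard error 0.20, 95% interval 0.73 to 1.85, adjusted p = 0.0219). The difference between these changes, 0.58 (95% interval -0.08 to 1.25), did not pass its test (adjusted p = 0.875, limma). Wdr6 was the only member past the adjusted p of 0.05 in either kind, 1 of 5 members tested in RNA, where 33.2% of all tested transcripts passed (13.0% higher in oligodendrocytes), and 1 of 6 in footprints, where 23.6% passed (12.8% higher), so the members' counts were not above the background. The median transcript changed by -0.23 in RNA and by -0.16 in footprints, so that Wdr6 stood 0.94 and 1.45 above it, and its change was higher than that of 81.5% and 85.7% of the tested transcripts. The values rested on between 893 and 1497 reads of 30 bases per RNA-seq library and between 1978 and 4160 per footprint library. Leaving out a culture leaves 1 library in its group, which is then assumed to vary like the other group. Without OPC replicate 1, OPC replicate 2, oligodendrocyte replicate 1 and oligodendrocyte replicate 2 in turn, 6.41%, 4.36%, 31.4% and 19.5% of all tested transcripts passed in RNA, and 0, 0, 42.1% and 9.24% in footprints. In the same order the adjusted p of Wdr6 RNA was 0.116, 0.0724, 0.0906 and 0.114, with the log2 fold change between 0.53 and 0.88. For Wdr6 footprints the log2 fold change stayed between 1.11 and 1.47, and the adjusted p was 0.0305 without oligodendrocyte replicate 1 and 0.0932 without oligodendrocyte replicate 2, while without either OPC replicate no transcript passed, so those fits do not bear on Wdr6.

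Wdr6 lies at chr9:108572311-108578739 (GRCm38, minus strand), in 6 exons, with a CDS of 3378 bases in a transcript of 4163. Exons of Dalrd3, on the opposite strand, overlap 383 bases of the transcript (9.20%) and 0 bases of the CDS. Since the authors' counting used no strand option, RNA reads in those bases cannot be assigned to either gene. Dalrd3 RNA moved the other way, from 29.4 and 25 FPKM in OPCs to 11.4 and 10.9 in oligodendrocytes, with a change of -1.28 on the log2 scale (adjusted p = 0.00717, limma, standard error 0.20). The rise in Wdr6 footprints was counted on bases that no Dalrd3 exon covers.

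**Figure D1:**
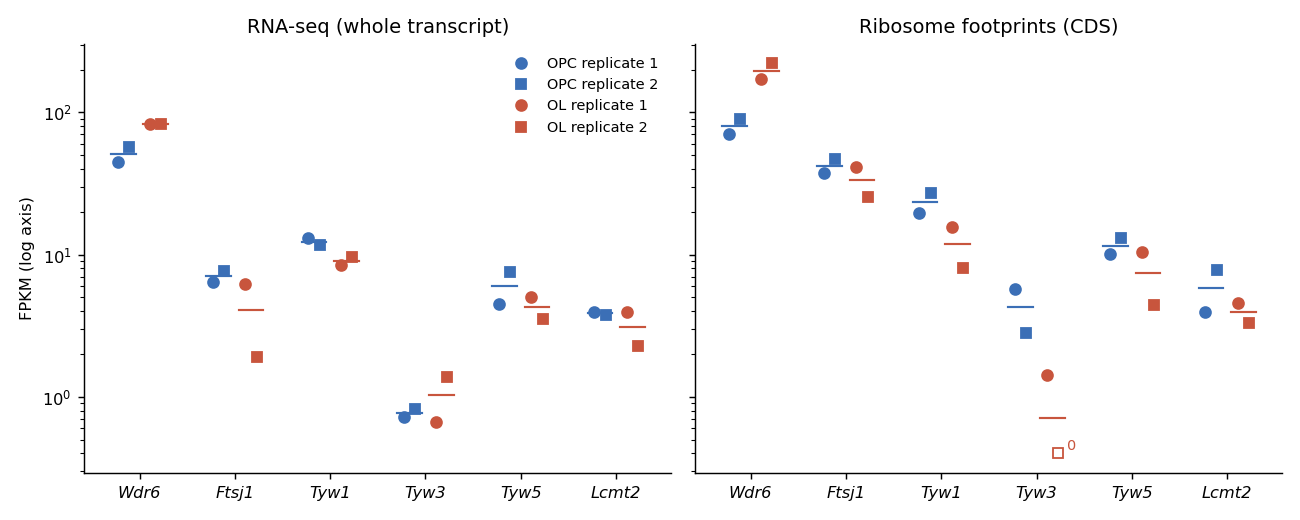
FPKM (log axis) of each gene in the 4 RNA-seq libraries (left) and the 4 footprint libraries (right), with OPCs in blue, oligodendrocytes in red, circles for replicate 1, squares for replicate 2 and bars for the group mean. Wdr6 is the highest in each library and is higher in oligodendrocytes, and the open square marks Tyw3, which is listed at 0 footprint FPKM in oligodendrocyte replicate 2.

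Ftsj1, the methyltransferase, did not pass the test, and its oligodendrocyte cultures differed from each other. Its RNA was at 6.40 and 7.69 FPKM in OPCs and at 6.26 and 1.90 in oligodendrocytes. Replicate 2 of the oligodendrocytes was low, while replicate 1 was at 0.979 of OPC replicate 1, so the groups were apart by a narrow margin. The low value rested on about 17 reads of 30 bases, and its exact Poisson interval, which covers counting error only, ran from 1.11 to 3.05 FPKM, below the interval of oligodendrocyte replicate 1 (5.01 to 7.73). The log2 fold change was -0.99 (95% interval -2.42 to 0.43, adjusted p = 0.229, limma). It was -1.83 without oligodendrocyte replicate 1 and -0.16 without oligodendrocyte replicate 2. Ftsj1 footprints were at 37.6 and 47.0 FPKM in OPCs and at 41.5 and 25.6 in oligodendrocytes, and the groups overlapped. Their log2 fold change was -0.37 (95% interval -1.20 to 0.47, adjusted p = 0.42). The gene lies at chrX:8238668-8252406 (minus strand) in 13 exons, and no exon of another gene overlaps its transcript of 3425 bases.

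The ratio of Wdr6 to Ftsj1 within a library does not depend on how the library was scaled. In RNA it was 6.98 and 7.42 in OPCs and 13.2 and 43.4 in oligodendrocytes, per length. In footprints it was 1.87 and 1.92 in OPCs and 4.17 and 8.63 in oligodendrocytes. The oligodendrocyte ratios were higher in each of the 4 comparisons between cultures in both kinds, and they were far more spread than those of OPCs. The mean log2 ratio was higher in oligodendrocytes by 1.70 in RNA and by 1.66 in footprints, and the exact permutation test of 2 against 2 cultures (two-sided) gave p = 0.33 for each, the smallest p it can give. Without oligodendrocyte replicate 2 the difference was 0.87 in RNA and 1.14 in footprints, and without replicate 1 it was 2.54 and 2.18.

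The wybutosine enzymes had lower footprints in oligodendrocytes on average, but none of the 4 passed the test in RNA or footprints. Tyw1 RNA was at 13.0 and 11.7 FPKM in OPCs and at 8.52 and 9.57 in oligodendrocytes, and its footprints were at 19.6 and 27.1 against 15.7 and 8.09. The groups did not overlap in either kind, and oligodendrocyte replicate 2 had the lowest footprint value. The log2 fold change was -0.44 in RNA (standard error 0.23, adjusted p = 0.188, limma) and -1.03 in footprints (standard error 0.43, 95% interval -2.22 to 0.17, adjusted p = 0.173). The footprint change was -1.5 without oligodendrocyte replicate 1 and -0.55 without oligodendrocyte replicate 2. Tyw1 lies at chr5:130257035-130341563 (plus strand) in 16 exons, and 332 of its 3015 words of 30 bases also occur in the processed pseudogene Gm12161, so reads in them can map to either.

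Tyw3, which acts after TYW1 on the way to wybutosine, was near the limit of detection. Its RNA was at 0.722 and 0.824 FPKM in OPCs and at 0.667 and 1.39 in oligodendrocytes, from 12 to 26 reads per library, which is under the minimum mean of 1 FPKM for testing. Its footprints were at 5.78 and 2.79 FPKM in OPCs, at 1.43 in oligodendrocyte replicate 1 and listed at 0 in replicate 2. The 3 nonzero values rested on about 37, 15 and 8 reads. A count of 0 in replicate 2 allows up to 1.25 FPKM (3 reads), which is near the value of replicate 1. The exact Poisson interval of that 0 ran up to 1.54 FPKM and takes in the value of replicate 1. The footprint groups did not overlap, and the log2 fold change was -3.40 (95% interval -7.93 to 1.13, adjusted p = 0.218, limma). With 1 FPKM added in place of 0.1 it was -1.70. With 0.1 added it was -5.37 without oligodendrocyte replicate 1, from a group that then held only the 0, and -1.43 without oligodendrocyte replicate 2. Tyw3 lies at chr3:154576431-154597095 (minus strand) in 6 exons, and exons of Cryz on the opposite strand cover 174 of the 774 bases of its CDS (22.5%). Cryz footprints were at 13.2 and 12.0 FPKM in OPCs and at 16.3 and 3.80 in oligodendrocytes, above those of Tyw3 in each library. The part of such reads in the Tyw3 values was not tested.

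Lcmt2, which acts on the side chain of wybutosine after TYW3, was at 3.95 and 3.79 FPKM of RNA in OPCs and at 3.94 and 2.28 in oligodendrocytes. Its footprints were at 3.93 and 7.77 FPKM in OPCs and at 4.59 and 3.33 in oligodendrocytes. The groups overlapped in both, and the log2 fold changes were -0.36 in RNA (95% interval -1.38 to 0.67, adjusted p = 0.540, limma) and -0.49 in footprints (95% interval -2.12 to 1.14, adjusted p = 0.569). It is the single-exon gene of the 6, at chr2:121137598-121140653 (minus strand), and exons of Adal on the opposite strand cover 173 of the 2061 bases of its CDS. Adal RNA was at 10.0 and 9.37 FPKM in OPCs and at 7.27 and 11 in oligodendrocytes, with an adjusted p of 0.786.

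Tyw5, the hydroxylase, was at 4.52 and 7.59 FPKM of RNA in OPCs and at 5.07 and 3.54 in oligodendrocytes. Its footprints were at 10.1 and 13.0 FPKM in OPCs and at 10.4 and 4.40 in oligodendrocytes. The groups overlapped in both kinds, with the lowest value in oligodendrocyte replicate 2. The log2 fold changes were -0.46 in RNA (95% interval -1.44 to 0.52, adjusted p = 0.406, limma) and -0.75 in footprints (95% interval -2.27 to 0.77, adjusted p = 0.372). Tyw5 lies at chr1:57388237-57407101 (minus strand) in 8 exons, and exons of Maip1 on the opposite strand cover 718 bases (38.9%) of its transcript and 78 bases of its CDS. Maip1 RNA was at 11.1 and 10.1 FPKM in OPCs and at 7.87 and 8.50 in oligodendrocytes, with a log2 fold change of -0.36 (adjusted p = 0.277), and RNA reads in the overlap cannot be assigned to either gene.

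**Figure D2:**
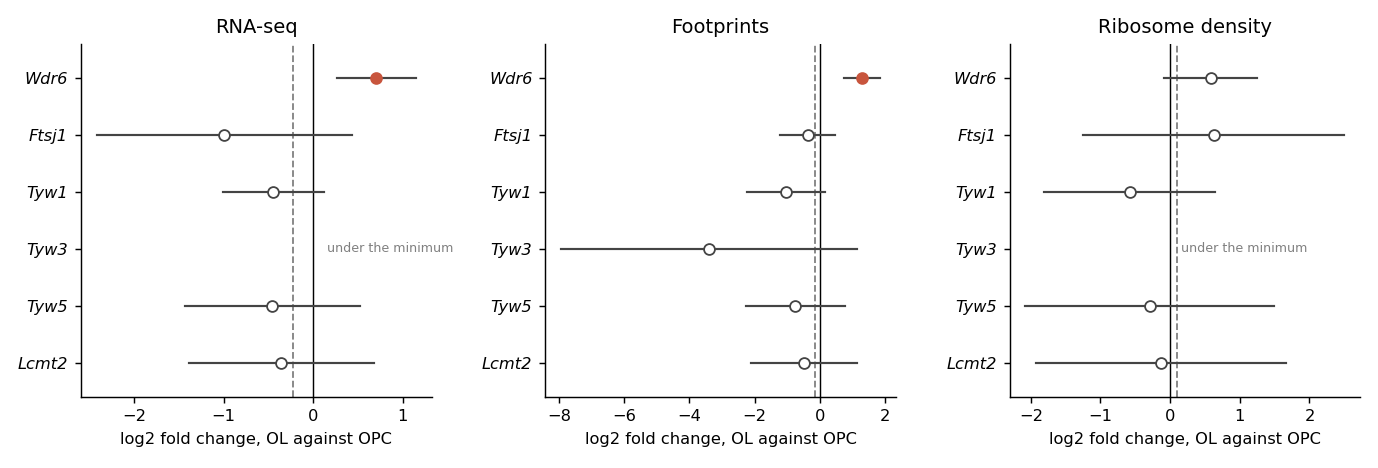
Log2 fold changes of oligodendrocytes against OPCs with 95% intervals, for RNA-seq, footprints and ribosome density, where filled red points have an adjusted p under 0.05 and the dashed line is the median of all tested transcripts. The intervals of Wdr6 in RNA-seq (0.27 to 1.15) and footprints (0.73 to 1.85) lie above 0, and every other interval spans 0.

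Across the members, the groups did not overlap for 3 of 6 in RNA (Wdr6, Ftsj1 and Tyw1) and for 3 of 6 in footprints (Wdr6, Tyw1 and Tyw3), against 71.7% and 69.7% of all tested transcripts. The members that were tested had a median log2 fold change of -0.44 in RNA and -0.62 in footprints, against -0.23 and -0.16 over all transcripts. Oligodendrocyte replicate 2 was below replicate 1 for 5 of 6 members in footprints and for 3 of 6 in RNA, against 69.3% and 64.2% of all tested transcripts, and the part of its lower depth in this was not tested.

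The order of levels was led by Wdr6 in all 4 groups and closed by Tyw3. In OPC RNA the mean of Wdr6 was 50.9 FPKM ± 8.75 (SD, n = 2), 4.12-fold that of Tyw1 (12.3 ± 0.921). Ftsj1 (7.04 ± 0.913) and Tyw5 (6.06 ± 2.17) followed, and their ranges overlapped, while Lcmt2 (3.87 ± 0.113) was below Tyw5 and Tyw3 (0.773 ± 0.0719) below Lcmt2. In oligodendrocyte RNA, Wdr6 (82.5 ± 0.128) was 9.12-fold above Tyw1 (9.04 ± 0.745), and the ranges of Tyw5 (4.31 ± 1.08), Ftsj1 (4.08 ± 3.08) and Lcmt2 (3.11 ± 1.17) overlapped each with the next. In footprints Ftsj1 took the place after Wdr6, at 42.3 ± 6.62 FPKM in OPCs and 33.5 ± 11.2 in oligodendrocytes, and it was apart from Tyw1 (23.3 ± 5.25 and 11.9 ± 5.38) in both. The footprint ranges of Lcmt2 and Tyw3 overlapped in OPCs, and those of Tyw1, Tyw5 and Lcmt2 overlapped each with the next in oligodendrocytes.

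**Figure D3:**
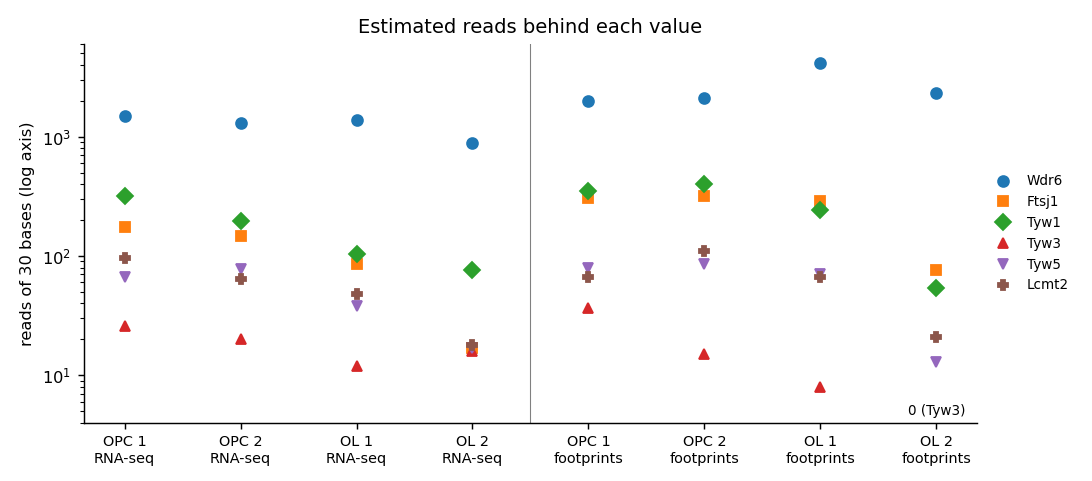
Estimated number of reads of 30 bases (log axis) behind each gene's value in each library. Wdr6 rests on at least 893 reads in every library, and Tyw3 on 37 or fewer.

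Ribosome density, the footprint FPKM divided by the RNA-seq FPKM of the same culture, was high for Ftsj1 in every culture. It was 5.88 and 6.11 for Ftsj1 in OPCs and 6.62 and 13.5 in oligodendrocytes, where the median of all tested transcripts was between 1.72 and 2.02. The density of Ftsj1 was higher than that of 96.4%, 96.2%, 96.8% and 99.1% of the transcripts in the same culture. The highest of these values has the RNA value of about 17 reads as its denominator. The density of Wdr6 was 1.58 and 1.58 in OPCs and 2.1 and 2.68 in oligodendrocytes, close to the median transcript in all but the last culture. Tyw1 (1.51 and 2.32 against 1.84 and 0.845), Tyw5 (2.24 and 1.72 against 2.06 and 1.24) and Lcmt2 (0.997 and 2.05 against 1.17 and 1.46) overlapped between the groups. Tyw3 had 8.0 and 3.39 in OPCs and 2.14 and 0 in oligodendrocytes, from the few reads given above. RNA-seq was counted over the whole transcript, and the CDS makes up 28.5% of the Ftsj1 transcript and 17.2% of that of Tyw3, against between 51.3% and 81.1% for the other members. The part of this difference in the densities was not tested.

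No member passed the test of a change in ribosome density between the cell types, 0 of 5 tested, where 0.0124% of 8056 transcripts passed. With an unadjusted p under 0.05 there were 0 of 5 members and 4.80% of all transcripts (limma). The groups did not overlap for 2 of these 5, Wdr6 and Ftsj1, against 43.0% of all transcripts. The log2 change was 0.58 for Wdr6 (95% interval -0.08 to 1.25, adjusted p = 0.875). With the cultures paired as a replicate block the interval was 0.13 to 1.04 (unadjusted p = 0.0214, adjusted p = 0.732, limma). In that fit 1 of 5 members was under an unadjusted p of 0.05 and 0 passed after adjustment. The block does not pair the RNA and footprints of a culture. With density taken per culture, which does, the interval of Wdr6 was -0.06 to 1.22 (unadjusted p = 0.0638, adjusted p = 0.711, limma). In the reported fit, without the block, the log2 change was 0.63 for Ftsj1 (95% interval -1.25 to 2.50), -0.58 for Tyw1 (-1.81 to 0.65), -0.29 for Tyw5 (-2.08 to 1.49) and -0.13 for Lcmt2 (-1.93 to 1.66).

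**Figure D4:**
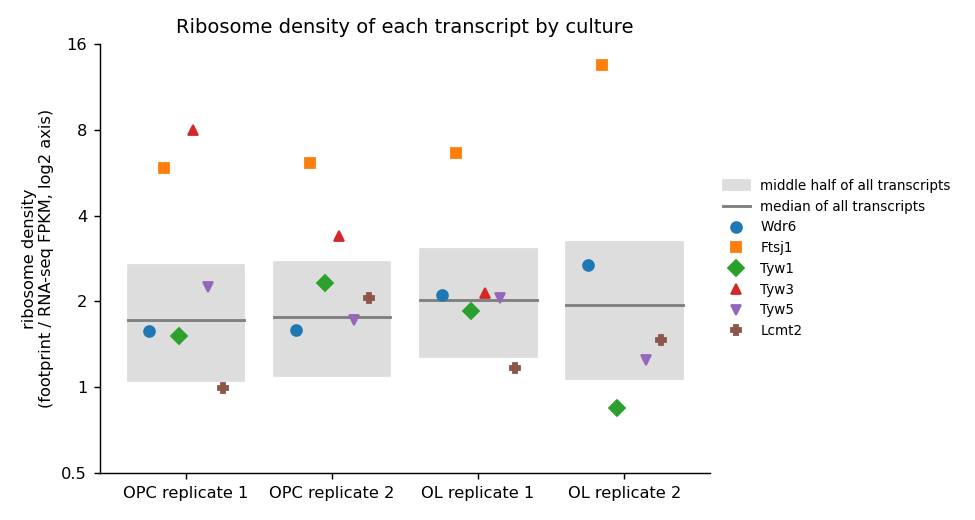
Ribosome density (log2 axis) of the 6 genes in each culture, with the grey box for the middle 50% of all tested transcripts and the grey line for their median. Ftsj1 lies above the box in every culture, from 5.88 to 13.5, and Tyw3, listed at 0 footprints in oligodendrocyte replicate 2, is not drawn there.

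The members' own coding sequences hold the codons that the Phe tRNA reads. Ftsj1 has 3 UUU and 9 UUC codons, and its UUU share of Phe codons, 0.25, is higher than that of 15.5% of the transcripts. Lcmt2 has 17 UUU and 12 UUC codons, and its share of 0.586 is higher than that of 78.3%. The other members lie between 0.33 and 0.469, around the median transcript at 0.429. The AAA share of Lys codons was highest in Tyw5, at 0.579, above 88.4% of the transcripts, and lowest in Ftsj1, at 0.167, above 11.1%.

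Other genes of the tRNA pathways were taken from lists. Of a list of enzymes for other tRNA positions, 7 of 16 fell in RNA and 0 rose, with a median log2 fold change of -0.95. In footprints 3 of 16 fell and 0 rose, with a median of -0.82. The list takes in enzymes whose target base is absent from the Phe tRNA printed above, so it is not limited to enzymes of this tRNA. Over all tested transcripts 20.2% fell in RNA and 10.8% in footprints. Mettl1, the catalytic part of the tRNA m7G methyltransferase, fell from 17.3 ± 1.55 to 3.46 ± 2.22 FPKM of RNA, a change of -2.45 on the log2 scale (adjusted p = 0.0141, limma, standard error 0.48), and by 1.87 in footprints (adjusted p = 0.0145). Nsun2, a cytosine methyltransferase, fell by 1.23 on the log2 scale in RNA and by 1.08 in footprints. Trmt6 and Trmt61a, the subunits of the m1A58 methyltransferase, fell by 1.48 and 1.65 in RNA, and Trmt61a by 1.27 in footprints. The footprint call of Trmt61a had an adjusted p of 0.0470 (limma). It was lost with median-ratio scaling (0.0743), no minimum of FPKM (0.0521) and no variance trend (0.102). It was kept with the replicate block (0.0251), a pseudocount of 1 FPKM (0.0372) and a minimum of 5 FPKM (0.0371). The guanosine dimethyltransferase Trmt1 fell by 0.82 in RNA, and the pseudouridine synthases Pus1 and Pus10 fell by 1.35 and 1.16. Left-out cultures changed these counts along with those of all transcripts. In RNA 1 of 16 fell without OPC replicate 1 (6.41% of all transcripts passed in either direction), 0 without OPC replicate 2 (4.36%) and 4 without oligodendrocyte replicate 2 (19.5%). In footprints 6 fell without oligodendrocyte replicate 1 (42.1%) and 0 without oligodendrocyte replicate 2 (9.24%), and without either OPC replicate 0 of all transcripts passed, so that count says nothing about the list.

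The cytosolic Phe-tRNA synthetase, which charges the tRNA, has the subunits Farsa and Farsb. Farsb fell from 53.0 ± 10.0 to 27.9 ± 4.64 FPKM of RNA (log2 fold change -0.92, adjusted p = 0.0246, limma) and from 78.4 ± 13.0 to 46.4 ± 1.39 of footprints (-0.75, adjusted p = 0.0493). Farsa was at 62.6 ± 1.54 and 42.9 ± 5.26 FPKM of RNA, with an adjusted p of 0.0515, and at 118.9 ± 11.4 and 95.8 ± 3.35 of footprints, with an adjusted p of 0.169. With the cultures paired as a replicate block, the adjusted p was 0.0361 for Farsa RNA and 0.0565 for Farsb footprints. The call of Farsb in footprints was also lost under median-ratio scaling (adjusted p = 0.0751), with no minimum of FPKM (0.0541), without the variance trend (0.119) and without either oligodendrocyte replicate (0.0993 and 0.135). Its call in RNA was lost without the variance trend (0.0721), without OPC replicate 1 (0.0804) or OPC replicate 2 (0.164), and without oligodendrocyte replicate 2 (0.113). The log2 fold change of Farsb with a culture left out stayed between -1.11 and -0.73 in RNA and between -0.91 and -0.58 in footprints.

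In the wobble uridine pathway, which modifies position 34 of other tRNAs, 3 of 9 genes fell in RNA and 1 rose, with a median of -0.67. In footprints 1 fell and 1 rose, with a median of -0.50. Over all tested transcripts 20.2% fell and 13.0% rose in RNA, and 10.8% fell and 12.8% rose in footprints. Elp6, a subunit of the Elongator complex, fell by 0.82 in RNA, and Ctu2, of the thiolation enzyme, by 1.05. The call of Elp6 had an adjusted p of 0.0471 (limma). It was lost with median-ratio scaling (0.0699), no minimum of FPKM (0.0629) and no variance trend (0.0902). It was kept with the replicate block (0.0305), a pseudocount of 1 FPKM (0.0401) and a minimum of 5 FPKM (0.0338). Kti12, a regulator of Elongator, fell by 1.03 in RNA and by 1.51 in footprints. Urm1, the sulfur carrier of the thiolation step, rose by 2.75 in RNA and 2.48 in footprints on the log2 scale, with footprints at 107.2 and 118.7 FPKM in OPCs and at 627.6 and 628.8 in oligodendrocytes. Without OPC replicate 1, OPC replicate 2 or oligodendrocyte replicate 2, none of the 3 falls in RNA was called. The rise of Urm1 was called without each culture in turn in RNA and without either oligodendrocyte replicate in footprints, and its log2 fold change in footprints stayed between 2.40 and 2.55 with a culture left out. Among relatives of the members by protein family, 2 of 9 fell in RNA (median -0.67) and 1 of 9 in footprints (median -0.70), and 0 rose. These counts of falls were near the shares of all tested transcripts that fell, 20.2% and 10.8%. Ftsj3, a relative of Ftsj1 that acts on ribosomal RNA, fell by 2.25 in RNA and fell by 1.26 in footprints, and Riox2, a dioxygenase of the same superfamily as Tyw5, by 1.82 in RNA. With the replicate block the adjusted p of Ftsj3 footprints was 0.0508. Neither fall in RNA was called without OPC replicate 1 or OPC replicate 2. None of the 36 genes of these lists that were tested passed the test of ribosome density.

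**Figure D5:**
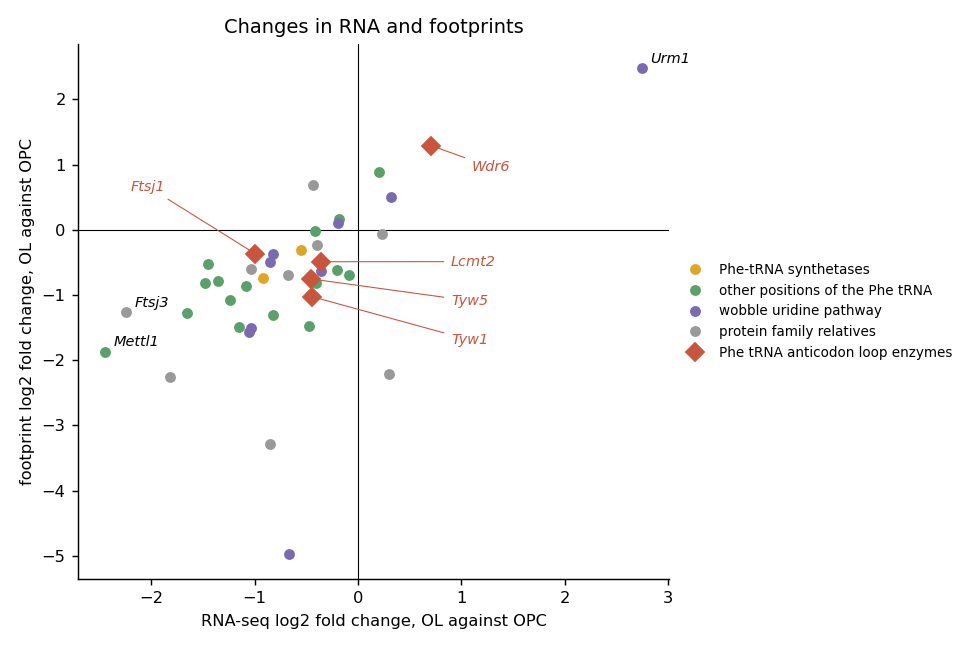
Log2 fold change of footprints against that of RNA-seq, oligodendrocytes against OPCs, for the 5 members tested in both kinds (red diamonds) and for the genes of the 4 lists (circles). Wdr6 (0.71 and 1.29) and Urm1 (2.75 and 2.48) are the genes past the threshold at the upper right, and the other 4 members lie below 0 on both axes.

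The transcripts most like each member were found by the root mean square difference of log2(FPKM + 0.1) over the 8 libraries, centred within each kind of library. For Wdr6 they were Cap1 (0.07) and Abhd16a (0.08), where the median of 8055 transcripts was 0.78. For Ftsj1 they were Tubgcp3 (0.10) and Thoc6 (0.15). Both had low RNA in oligodendrocyte replicate 2, a library that entered the match, so this follows from how they were found. The values were 3.92 FPKM against 10.2 in replicate 1 for Tubgcp3 and 3.52 against 11 for Thoc6. For Tyw1 they were Pgs1 (0.07) and Pigx (0.12), for Tyw5 Rbm6 (0.15), for Lcmt2 Mtrf1l (0.15) and Txndc11 (0.15), and for Tyw3 Zfp9 (0.27) and Mbd4 (0.33). Between members the difference was 0.30 to 0.56 among Ftsj1, Tyw1, Tyw5 and Lcmt2, 0.81 to 0.98 between Wdr6 and these 4, and 1.23 to 2.02 between Tyw3 and any other. These are descriptions over 8 libraries of 4 cultures and carry no test.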

How the data were processed

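The authors deposited FPKM values for footprints (on the CDS) and RNA-seq (on the whole transcript) of the same lysates, with replicates kept apart. Per the labels, reads were processed with HISAT2 2.1.0 and StringTie 1.3.5 on GRCm38. The study's methods add adapter clipping and canonical coding transcripts of Gencode. Its test of counts cannot be repeated from FPKM.

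Here, log2(FPKM + 0.1) was fitted with limma 3.58.1 in R 4.3.3 (eBayes with a variance trend, two-sided, Benjamini-Hochberg adjustment over all tested transcripts, threshold 0.05) where the mean FPKM of the 4 libraries of a kind reached 1. The change in ribosome density was tested as an interaction term in a fit to all 8 libraries. The fits were also run on simulated data with independent noise. These data held no pairs of cultures and no lower depth of oligodendrocyte replicate 2, so they do not vouch for the calls here. Coordinates, lengths and overlaps came from Gencode vM21, tRNA sequences from RefSeq. The study counted on an earlier Gencode release of the same build, so lengths and the read numbers drawn from them may be off. Depth was estimated from the step of FPKM times length that corresponds to 1 aligned base. A factor of 2 in it is possible, although single reads came to between 27 and 32 bases, and reads of 30 bases were assumed. Poisson intervals and floors of 3 reads cover counting error only.

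Cultures with the same number were taken as pairs because the study states that the oligodendrocytes came from the corresponding OPC replicates. The pairs entered the fold ratios between cultures and the replicate block, while the reported limma fits held no pairing term. Deviations of same-numbered cultures correlated at 0.108 in RNA-seq and 0.0860 in footprints, across transcripts. The limma p-values rest on the spread between the 2 cultures of each cell type. Each transcript's variance was drawn toward a trend over all tested transcripts. Members and lists were chosen with earlier results of these data known. Named were the members, genes of the lists past the threshold, both synthetase subunits, genes overlapping a member, the 2 nearest patterns of each member and, for labels, markers. Genes of the lists without values were not analysed here. A few other genes are not reported here and were left out of the lists, the markers and the nearest patterns. Alternatives were another pseudocount, minimum and scaling, no variance trend, a replicate block, each culture left out and density per culture.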

Additional observations from a re-analysis of the deposited data

How the results depend on the processing

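The adjusted p of Wdr6 ranged from 0.0145 to 0.116 in RNA and from 0.00985 to 0.159 in footprints over 10 alternatives each, past the threshold in 5 and 6 of them, and its direction was kept in all. Without the variance trend its adjusted p was 0.0918 and 0.0707, so 0 members passed in either kind, and footprint calls fell to 1036 transcripts and 2 genes of the lists. With cultures left out, the transcripts called ranged from 364 to 2599 in RNA, 0 to 3442 in footprints and 0 to 883 in ribosome density, members from 0 to 1 and from 0 to 3, and genes of the lists from 1 to 17 and from 0 to 15. Ribosome density gave 1 transcript as reported, 3 with median-ratio scaling, 14 without the trend and 0 per culture. With cultures left out, 3 changes turned direction: Lcmt2 in RNA ranged from -0.74 to 0.026, Tyw5 density from -0.65 to 0.066 and Lcmt2 density from -0.65 to 0.38. Median-ratio scaling moved the median of all transcripts by 0.18 in RNA and -0.16 in density, and calls higher in oligodendrocytes from 39.1% to 51.5% in RNA, with no change of call or direction among members. With the replicate block, paired by culture, Wdr6 had an adjusted p of 0.0145 in RNA and 0.00985 in footprints, and no member's call changed. Of genes of the lists not named in the report, Ctu1, Dus1l and Jmjd6 RNA and Trmt112 footprints passed with the block and not in the reported fit (adjusted p 0.0448, 0.0326, 0.0323 and 0.035). Without either OPC footprint library 0 transcripts passed (1936 and 1927 at an unadjusted p under 0.05, limma), so no gene's loss of a call there bears on that gene. Counting error is widest for Tyw3, with 37 reads or fewer in any library.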
